A study of Saccharomyces kudriavzevii and Saccharomyces cerevisiae and Kluyveromyces marxianus with 12 samples.

Results

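The 38 genes described here encode translation initiation and elongation factors of *S. cerevisiae*, grouped by the complex their proteins form. They were chosen by gene identifier, with earlier results of these data known, and all 38 were found among the 6017 genes counted. The set covers the cap-binding complex eIF4F with eIF4B, the eIF4E-binding repressors CAF20 and EAP1, eIF1, eIF1A and eIF5, eIF2, its exchange factor eIF2B, eIF3, eIF5B, the elongation factors eEF1, eEF2 and eEF3, eIF5A, and the release factor SUP45. The question was how the mRNA of each complex stood after heat shock at 40 °C relative to control cells at 33 °C, and how the complexes differed from one another.

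The study sequenced poly(A) RNA of 3 yeast species in 12 libraries, and the 4 libraries of *S. cerevisiae* strain BY4742 are used here. The heat shock libraries (n = 2) came from cells held at 40 °C for 8 minutes, and the control libraries (n = 2) from cells held at 33 °C for the same time. All cultures had been grown at 33 °C in YPD with 2% dextrose to an OD600 between 0.2 and 0.4, and the labels call the replicates biological. BY4742 is a laboratory haploid of the alpha mating type with deletions in *URA3*, *LEU2* and *LYS2* and the his3Δ1 allele, all shared by both conditions. *URA3*, *LEU2* and *LYS2* were listed at 0 in all 4 libraries. These are bulk cultures of a single strain, and fewer cells that express a gene cannot be told apart from less RNA per cell. All values are relative to the RNA of their own library.

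Between 18911098 and 22476146 reads were counted on genes in the heat shock libraries and between 19787368 and 23476002 in the control libraries. The heat shock chaperone gene *SSA4* had 3752 and 4537 TPM (a level that corrects for gene length and for the size of the library) in heat-shocked cells, against 27.5 and 25.0 TPM in control cells. Of 5786 genes tested, 1947 were called higher and 1894 lower after heat shock by the quasi-likelihood test of edgeR at a Benjamini-Hochberg adjusted p under 0.05, so that 50.7% of the calls were higher. On the TPM scale, fitted with limma, 68.3% of the calls were higher. The median gene stood at a log2 fold change of 0.26 there and at 0.03 in edgeR. Each fold change is read beside the median of its own scale. The test and the filter differed as well, and what moved the share was not tested. Fold changes below are those of edgeR unless TPM is named, and levels in CPM are counts scaled to library size after TMM.

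Translation starts when eIF4F binds the cap of an mRNA and the small ribosomal subunit arrives with eIF1, eIF1A, eIF3, eIF5 and initiator tRNA carried by eIF2 with GTP. eIF2B recharges eIF2 with GTP, and eIF5B joins the large subunit. During elongation eEF1A delivers aminoacyl-tRNA and is recharged by eEF1B, eEF2 moves the ribosome along, and fungi also need eEF3, an ATPase that helps clear the exit site. Yeast keeps several of these factors as pairs of genes left from duplications.

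Reads were counted only where they aligned to a single place, so the sequence of each pair decides how well its genes can be told apart. The stretches below show this for 3 pairs. Each is 60 bases of coding sequence from RefSeq, assembly R64, read 5′ to 3′ on the strand of the gene, with capitals where the copies differ. They lie at chrXVI:701325-701384 (+) and chrII:478402-478461 (+) for the eEF1A genes, chrXI:555183-555242 (+) and chrX:154436-154495 (-) for the eIF4A genes, and chrV:85961-86020 (+) and chrX:525037-525096 (-) for the eIF5A genes.
TEF1: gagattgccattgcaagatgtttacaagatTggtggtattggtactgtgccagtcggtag
TEF2: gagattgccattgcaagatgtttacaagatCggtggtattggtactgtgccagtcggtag
TIF1: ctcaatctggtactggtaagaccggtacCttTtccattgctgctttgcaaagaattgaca
TIF2: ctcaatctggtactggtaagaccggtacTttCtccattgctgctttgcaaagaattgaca
HYP2: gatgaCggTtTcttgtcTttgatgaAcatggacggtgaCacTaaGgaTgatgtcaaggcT
ANB1: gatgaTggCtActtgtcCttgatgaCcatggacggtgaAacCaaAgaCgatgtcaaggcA

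The coding sequences of *TEF1* and *TEF2* differed at 2 of 1377 positions, those of the eEF2 genes *EFT1* and *EFT2* at 4 of 2529, and those of *TIF1* and *TIF2* at 6 of 1188. Of all 100-base windows in their coding sequence, 86.5% for the *TEF1* and *TEF2* pair, 83.5% for the eEF2 pair and 74.1% for the eIF4A pair occurred in more than 1 place in the genome. For these 6 genes the levels are understated and the split between copies rests on few positions, so their sums are given beside them. *HYP2* and *ANB1*, at 90.93% identity, and the other 30 members had no such window.

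**Figure D1:**
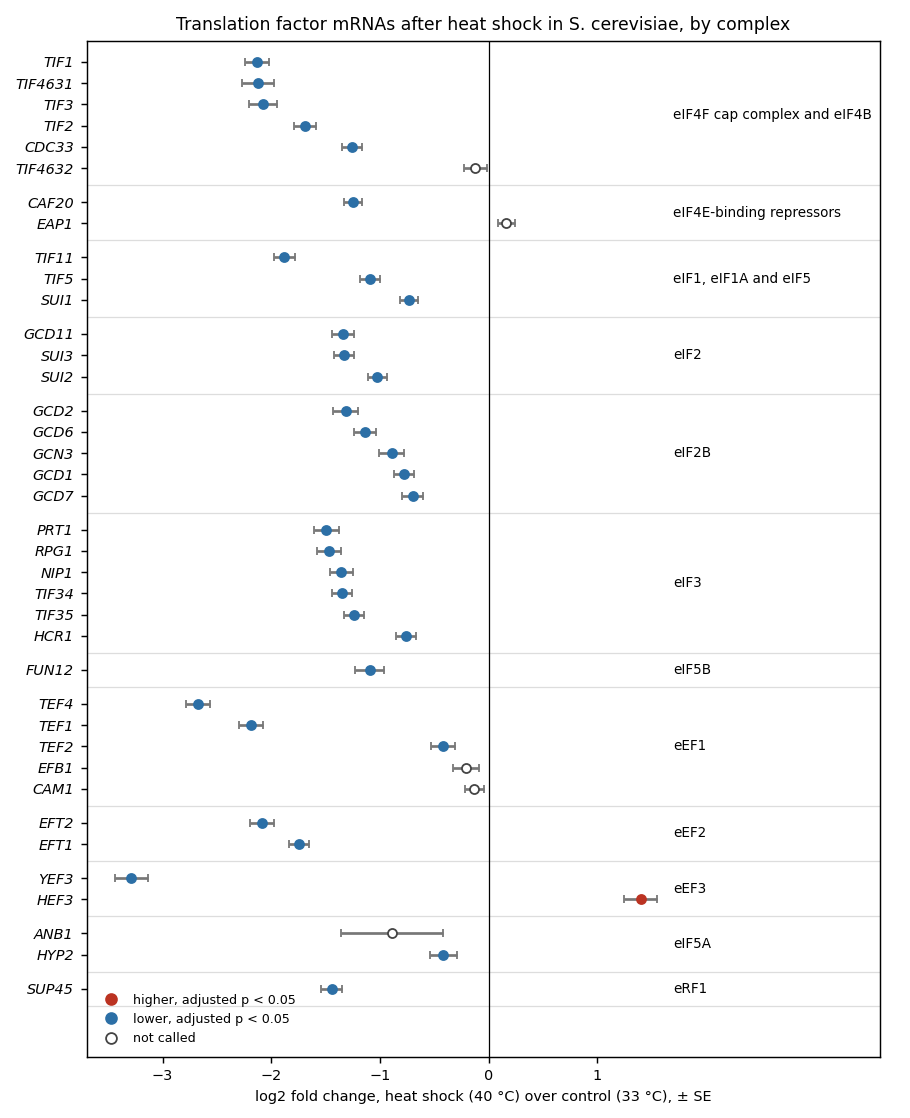
Log2 fold change of each of the 38 genes (points, with bars of 1 SE) in heat shock over control, grouped by complex, from the edgeR fit over 4 libraries. The 32 genes called lower lie to the left of 0, *YEF3* lies farthest at -3.29, and *HEF3* is the only gene called higher at 1.40.

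The mRNA of most translation factors was lower after heat shock. Of the 38 genes, 32 were called lower and 1 higher, where 32.7% of all genes tested were called lower, 33.7% higher and 66.4% in either direction, and 5 (*TIF4632*, *EAP1*, *EFB1*, *CAM1* and *ANB1*) were not called. The median log2 fold change of the 38 was -1.25, with a range from -1.32 to -1.19 over the single pairs of a heat shock and a control library, and the median of all genes was 0.03. The log2 fold change was below -1 for 25 of the 38, against 13.7% of all genes tested. Both heat shock libraries were below both control libraries for 35 members, against 41.3% of all genes tested, above them for *HEF3* and *EAP1*, and overlapping for *ANB1*. Together the 38 genes took 1.38% and 1.39% of the counts in heat-shocked cells, against 3.05% and 3.32% in control cells.

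The complexes differed in how far their genes were lower. Members are not replicates of a condition, so the medians below describe each complex with no test between them. Among groups of several genes, the lowest medians were those of eEF2 at -1.92 and of eIF4F with eIF4B at -1.88, followed by eIF3 at -1.35 and eIF2 at -1.33. The medians of eIF2B and of the eIF1, eIF1A and eIF5 group were -0.89 and -1.09, that of eEF3 was -0.94, and those nearest 0 were eIF5A at -0.65, the eIF4E-binding repressors at -0.55 and eEF1 at -0.42. Over single library pairs the eIF5A median ran from -1.15 to -0.15, the widest range of the groups, while that of eEF1 ran from -0.45 to -0.39. The eEF1 median is the value of *TEF2*, so its narrow range describes that gene and not the complex. This order depends on how paralogs are treated. With the counts of each paralog pair summed, eEF3 had the lowest median of all, at -3.25 relative to the median of all genes, eEF1 stood at -1.03 and was no longer nearest 0, and eIF4F with eIF4B stood at -1.69. For eEF1, eEF3 and the repressors the median over single genes stands for genes that moved by very different amounts, as described for each below.

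In eIF4F, eIF4E binds the cap, eIF4G is the scaffold and eIF4A is the RNA helicase, which eIF4B assists. The scaffold is encoded by *TIF4631* and *TIF4632*, and these diverged. *TIF4631* (YGR162W, chrVII:824059-826917) had 70.4 and 73.6 CPM in heat-shocked cells, against 269 and 358 CPM in control cells, a log2 fold change of -2.12 ± 0.15 (SE, edgeR adjusted p = 2.87e-05). *TIF4632* (YGL049C, chrVII:406860-409604) had 75.1 and 75.0 CPM in heat-shocked cells, against 77.1 and 86.3 CPM in control cells (-0.12 ± 0.10, edgeR adjusted p = 0.331). Its heat shock libraries were just below its control libraries in CPM. The sign turned in TPM (0.13), where the median of all genes was higher (0.26), and no direction is given. *TIF4632* took 51.6% and 50.5% of the counts of the pair in heat-shocked cells, against 22.3% and 19.4% in control cells. Per length the scaffold genes stood close together after heat shock, with 23.6 and 23.3 TPM for *TIF4632* beside 21.3 and 21.9 TPM for *TIF4631*.

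The helicase genes were both lower. *TIF1* (YKR059W, chrXI:554987-556174) had 192 and 221 CPM in heat-shocked cells, against 905 and 905 CPM in control cells (-2.13 ± 0.11, edgeR adjusted p = 8.47e-06). *TIF2* (YJL138C, chrX:153504-154691) had 269 and 245 CPM in heat-shocked cells, against 809 and 848 CPM in control cells (-1.69 ± 0.10, edgeR adjusted p = 1.55e-05). Since these genes share most of their sequence, the sum of their counts was also tested, and it was lower by a log2 fold change of -1.90 ± 0.10 (edgeR adjusted p = 8.60e-06). *TIF3* (YPR163C), which encodes eIF4B, was lower by a similar amount, with 84.4 and 95.8 CPM in heat-shocked cells, against 342 and 418 CPM in control cells (-2.08). *CDC33* (YOL139C), which encodes eIF4E, had 250 and 270 CPM in heat-shocked cells, against 632 and 613 CPM in control cells (-1.26 ± 0.10, edgeR adjusted p = 4.32e-05). Its fold change was the smallest of the 5 eIF4F and eIF4B genes called.

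Caf20 and Eap1 bind eIF4E at the site that eIF4G uses and so repress cap-dependent initiation. Their genes did not move together. *CAF20* (YOR276W) had 104 and 107 CPM in heat-shocked cells, against 254 and 247 CPM in control cells (-1.25 ± 0.08, edgeR adjusted p = 2.31e-05), close to the fold change of *CDC33*. *EAP1* (YKL204W) had 114 and 114 CPM in heat-shocked cells, against 102 and 102 CPM in control cells (0.16 ± 0.08, edgeR adjusted p = 0.111). The libraries of *EAP1* did not overlap, and it was called higher only on the TPM scale, at 0.40 (limma adjusted p = 0.0076), where the median of all genes is higher.

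eIF1 and eIF1A keep the scanning ribosome open until the start codon is found, and eIF5 triggers GTP hydrolysis by eIF2. All 3 genes were called lower, by amounts that were far apart. *TIF11* (YMR260C), for eIF1A, had 148 and 161 CPM in heat-shocked cells, against 551 and 586 CPM in control cells (-1.88 ± 0.10, edgeR adjusted p = 8.69e-06). *SUI1* (YNL244C), for eIF1, had 252 and 254 CPM in heat-shocked cells, against 429 and 412 CPM in control cells (-0.73 ± 0.09, edgeR adjusted p = 0.000352). *TIF5* lay between them at -1.09. No 100-base window of any of the 3 occurred elsewhere in the genome.

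The 3 subunits of eIF2, which carries initiator tRNA, were lower by similar amounts. The largest change was that of *GCD11* (YER025W), the gamma subunit that binds GTP, with 139 and 149 CPM in heat-shocked cells, against 341 and 390 CPM in control cells (-1.34 ± 0.10, edgeR adjusted p = 4.54e-05). The smallest was that of *SUI2* (YJR007W), the alpha subunit that the kinase Gcn2 phosphorylates, with 179 and 190 CPM in heat-shocked cells, against 365 and 385 CPM in control cells (-1.02). *SUI3*, the beta subunit, lay beside *GCD11* at -1.33.

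The 5 genes of eIF2B were all called lower, with log2 fold changes from -1.32 to -0.70. *GCD2* (YGR083C), a regulatory subunit, had 87.7 and 86.7 CPM in heat-shocked cells, against 196 and 239 CPM in control cells (-1.32 ± 0.11, edgeR adjusted p = 7.65e-05). *GCD7* (YLR291C), another regulatory subunit, had 67.1 and 65.1 CPM in heat-shocked cells, against 102 and 113 CPM in control cells (-0.70 ± 0.10, edgeR adjusted p = 0.000812). The catalytic subunits did not stand apart from the regulatory ones, with *GCD6* at -1.14 and *GCD1* at -0.78, and *GCN3* lay between these at -0.89.

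eIF3 is the scaffold of the small subunit complex. Its 5 core genes fell within a narrow span, from -1.49 for *PRT1* to -1.24 for *TIF35*, with *RPG1* at -1.47, *NIP1* at -1.36 and *TIF34* at -1.35. *PRT1* (YOR361C) had 129 and 134 CPM in heat-shocked cells, against 335 and 405 CPM in control cells (-1.49 ± 0.11, edgeR adjusted p = 4.53e-05). *HCR1* (YLR192C), which encodes the loosely bound eIF3j, changed least, with 243 and 246 CPM in heat-shocked cells, against 425 and 403 CPM in control cells (-0.76 ± 0.09, edgeR adjusted p = 0.000311). *FUN12* (YAL035W, chrI:76427-79435), the gene of the joining GTPase eIF5B, had 217 and 232 CPM in heat-shocked cells, against 420 and 539 CPM in control cells (-1.09 ± 0.14, edgeR adjusted p = 0.000421). Its control libraries were farther apart than those of the eIF3 genes relative to their level.

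**Figure D2:**
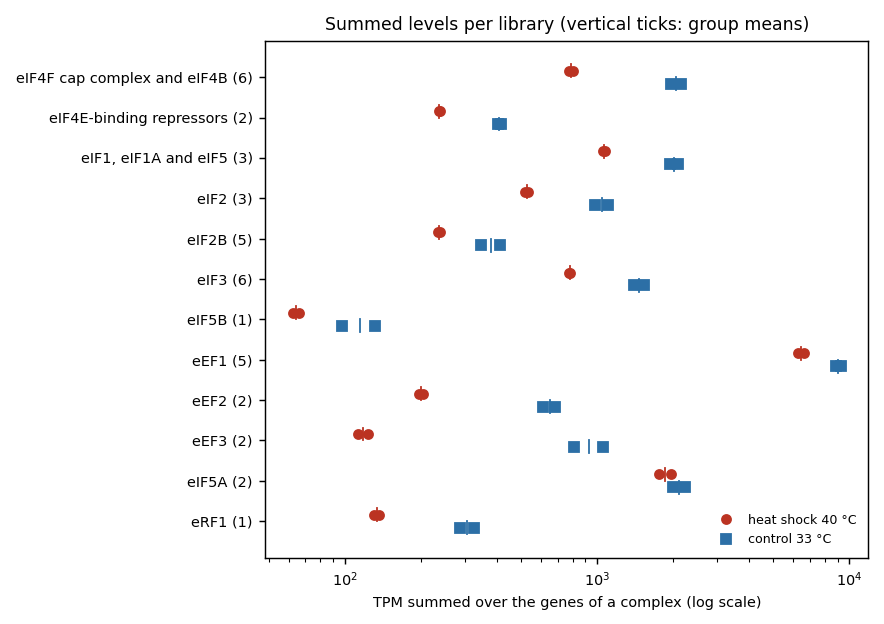
TPM summed over the genes of each complex, in each of the 2 heat shock and 2 control libraries (points, log axis). The eEF1 sum is the highest in both conditions, and the eEF3 sum has the widest gap, with 113 and 124 TPM in heat shock and 811 and 1053 TPM in control.

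Summed over its genes, eEF1 had the highest TPM of the complexes, and its genes changed by very different amounts. eEF1A is encoded by *TEF1* and *TEF2*, and its exchange factor eEF1B by *EFB1* (the catalytic alpha subunit) and by *CAM1* and *TEF4* (gamma subunits). *TEF1* (YPR080W, chrXVI:700594-701970) had 917 and 861 CPM in heat-shocked cells, against 4019 and 4069 CPM in control cells (-2.19 ± 0.11, edgeR adjusted p = 7.84e-06). *TEF2* (YBR118W, chrII:477671-479047) had 3408 and 3361 CPM in heat-shocked cells, against 4594 and 4469 CPM in control cells (-0.42 ± 0.11, edgeR adjusted p = 0.0122). The 2 coding sequences have the same length, so the counts compare directly, and the genes were close to level in control cells and *TEF2* was well above *TEF1* after heat shock, with 78.8% and 79.6% of the counts of the pair in heat-shocked cells, against 53.3% and 52.3% in control cells. These shares rest on the reads that reach sequence in which the copies differ. The summed counts of the pair were lower by a log2 fold change of -1.01 ± 0.11 (edgeR adjusted p = 0.000249). On the TPM scale, where the median of all genes was 0.26, *TEF2* was not called (-0.17, limma adjusted p = 0.13).

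The eEF1B gamma genes diverged as widely. *TEF4* (YKL081W, chrXI:282891-284455) had 288 and 308 CPM in heat-shocked cells, against 1814 and 1996 CPM in control cells (-2.67 ± 0.11, edgeR adjusted p = 4.33e-06). *CAM1* (YPL048W, chrXVI:464401-465648) had 422 and 412 CPM in heat-shocked cells, against 460 and 454 CPM in control cells (-0.13 ± 0.09, edgeR adjusted p = 0.224). Its sign turned in TPM (0.12), where the median of all genes was higher (0.26). Per length, *CAM1* was above *TEF4* after heat shock, with 292 and 281 TPM beside 201 and 212 TPM, and below it in control cells, with 259 and 269 TPM beside 1027 and 1190 TPM. *TEF4* took 40.6% and 42.8% of the pair in heat-shocked cells, against 79.8% and 81.5% in control cells. These coding sequences are 68.61% identical and share no 100-base window. *EFB1* (YAL003W, chrI:142174-143160) had 2194 and 2551 CPM in heat-shocked cells, against 2779 and 2707 CPM in control cells (-0.21 ± 0.12, edgeR adjusted p = 0.162). Its sign also turned in TPM (0.04), again below the median of all genes on that scale. Without heat shock replicate 2, the higher of the heat shock libraries, *EFB1* was called lower at -0.35 (edgeR adjusted p = 0.0327).

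eEF2, the GTPase that moves the ribosome by a codon, is encoded by *EFT1* and *EFT2*. *EFT1* (YOR133W, chrXV:575098-577626) had 256 and 258 CPM in heat-shocked cells, against 866 and 856 CPM in control cells (-1.75 ± 0.09, edgeR adjusted p = 9.32e-06). *EFT2* (YDR385W, chrIV:1243230-1245758) had 341 and 325 CPM in heat-shocked cells, against 1343 and 1484 CPM in control cells (-2.09 ± 0.11, edgeR adjusted p = 8.51e-06). Both copies were lower by like amounts, and *EFT2* held 57.2% and 55.8% of the pair in heat-shocked cells, against 60.8% and 63.4% in control cells. The sum of the pair was lower by -1.95 ± 0.11 (edgeR adjusted p = 9.49e-06).

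The eEF3 genes held both extremes of the set. *YEF3* (YLR249W, chrXII:636780-639914), the essential eEF3 gene, had 392 and 435 CPM in heat-shocked cells, against 3617 and 4462 CPM in control cells (-3.29 ± 0.15, edgeR adjusted p = 5.60e-06). Its control mean was 9.76 times its heat shock mean. *HEF3* (YNL014W, chrXIV:606319-609453), a paralog of low expression in glucose-grown cells, had 18.7 and 19.5 CPM in heat-shocked cells, against 8.02 and 6.50 CPM in control cells (1.40 ± 0.15, edgeR adjusted p = 0.000246). It was the only one of the 38 called higher by edgeR, with 431 and 366 reads in heat-shocked cells, against 155 and 153 reads in control cells. *HEF3* took 4.55% and 4.28% of the counts of the pair in heat-shocked cells, against 0.221% and 0.145% in control cells, and the sum of the pair followed *YEF3* (-3.23 ± 0.15, edgeR adjusted p = 5.67e-06). The coding sequences are 74.63% identical with no shared 100-base window.

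eIF5A, which carries the modified lysine hypusine and helps ribosomes through difficult sequences, is encoded by *HYP2* in air and by *ANB1* when oxygen is low. *HYP2* (YEL034W, chrV:85676-86149) had 916 and 1069 CPM in heat-shocked cells, against 1261 and 1387 CPM in control cells (-0.42 ± 0.12, edgeR adjusted p = 0.0202). This call was lost without heat shock replicate 1 (-0.31, edgeR adjusted p = 0.101), without control replicate 2 (-0.35, edgeR adjusted p = 0.0652) and in TPM (-0.17, limma adjusted p = 0.26). *ANB1* (YJR047C, chrX:524908-525381) had 50.1 and 22.1 CPM in heat-shocked cells, against 94.1 and 40.8 CPM in control cells (-0.89 ± 0.47, edgeR adjusted p = 0.132). Its groups overlapped, and replicate 1 was 2.27 times replicate 2 in heat shock and 2.31 times in control. The same ratio ran from 0.751 to 1.23 over the other 37 members. With a replicate block *ANB1* was called lower (-0.90), though the labels name no shared batch. *ANB1* was called lower without heat shock replicate 1 (-1.61, edgeR adjusted p = 0.0449) and without control replicate 2 (-1.37, edgeR adjusted p = 0.0172), and was not called without heat shock replicate 2 (-0.45, edgeR adjusted p = 0.42) or without control replicate 1 (-0.19, edgeR adjusted p = 0.68). *SUP45* (YBR143C, chrII:530869-532182), the gene of the release factor eRF1, had 199 and 212 CPM in heat-shocked cells, against 537 and 579 CPM in control cells (-1.44 ± 0.10, edgeR adjusted p = 2.51e-05).

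**Figure D3:**
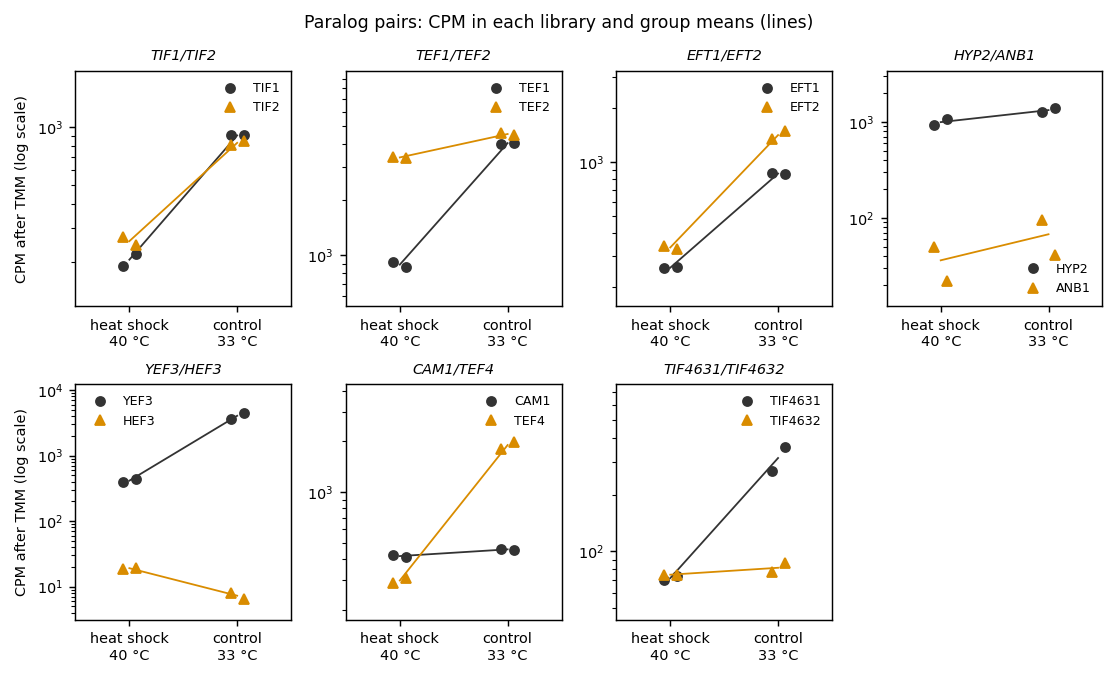
CPM (log axis) of both genes of each of the 7 paralog pairs in the 2 heat shock and 2 control libraries (points, with lines joining the means). *TEF1*, *TEF4*, *YEF3* and *TIF4631* lie well below their control values after heat shock, their partners *TEF2*, *CAM1* and *TIF4632* lie closer to theirs, and *HEF3* lies above its own.

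Across the 7 pairs, the log2 ratio of the second gene to the first differed between heat shock and control by 4.68 for *HEF3* over *YEF3*, -2.54 for *TEF4* over *CAM1*, 1.99 for *TIF4632* over *TIF4631* and 1.76 for *TEF2* over *TEF1*. The shifts for *TIF2* over *TIF1* (0.45), *EFT2* over *EFT1* (-0.34) and *ANB1* over *HYP2* (-0.48) were smaller. In an exact two-sided permutation test of each ratio over the 4 libraries, 6 pairs reached p = 0.333 (0.389 after Benjamini-Hochberg adjustment over the 7 pairs), which is the smallest that 2 against 2 libraries allow, and *ANB1* over *HYP2* had p = 0.667. The design therefore could not bring any of these shifts under 0.05 in this test.

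TPM can be compared between genes, except that the values of *TEF1*, *TEF2*, *TIF1*, *TIF2*, *EFT1* and *EFT2* are understated, so the places of these 6 genes are those of their listed values only. As listed, *EFB1* was the highest of the 38 in both conditions, with 3054 and 3502 TPM in heat-shocked cells, against 3141 and 3222 TPM in control cells. *TEF2*, whose true place relative to *EFB1* cannot be told, came next in both lists, with 2140 and 2081 TPM in heat-shocked cells, against 2342 and 2399 TPM in control cells. *HYP2*, whose reads are not shared, had 1671 and 1923 TPM in heat-shocked cells, against 1867 and 2163 TPM in control cells, and *TEF1* was listed at 576 and 533 TPM in heat-shocked cells, against 2048 and 2184 TPM in control cells. By listed values, *YEF3* stood at rank 20 of 38 after heat shock and at rank 6 in control cells, and *CAM1* at rank 8 after heat shock and rank 20 in control cells. *HEF3* was the lowest in both, with 5.16 and 5.29 TPM in heat-shocked cells, against 1.80 and 1.53 TPM in control cells. Summed over genes as listed, eEF1 had 6262 and 6609 TPM in heat-shocked cells, against 8817 and 9263 TPM in control cells. Its control sum was 1.41 times its heat shock sum. The same ratio was 7.87 for eEF3, 3.24 for eEF2, 2.62 for eIF4F with eIF4B and 1.14 for eIF5A. The sums of eEF1, eEF2 and eIF4F include the 6 understated genes, so their ratios hold for listed values only. None of these sums overlapped between conditions. In CPM, both heat shock libraries were below both control libraries for 41.3% of all genes tested. The share of all genes in TPM, the scale of the sums, was not counted. For eIF5A the gap was narrow, with 1762 and 1962 TPM in heat-shocked cells, against 2007 and 2226 TPM in control cells. Taken singly, *HYP2* and *ANB1* each overlapped between conditions in TPM.

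The region around the start codon of each gene, from 250 bases before it to 50 after, was searched on both strands for the letters of 6 known motifs in RefSeq R64. The ribosomal RNA processing element (RRPE, letters AAAAATTT), an A/T-rich box named for its place in ribosome biogenesis promoters, occurred in 25 of the 38 regions (65.8%) and in 14.2% of all 5994 regions of the same length. In 24 of the 25 it lay before the start codon, and in *PRT1* only after it. Examples are shown from genes with large changes and from *EFB1*, which was not called, each 30 bases read 5′ to 3′ on the strand of the gene with the motif in capitals (AAATTTTT is the same motif on the other strand). The sites lie at chrXII:636581-636610 (+), chrXI:282740-282769 (+), chrXVI:700377-700406 (+), chrVII:823834-823863 (+), chrII:532333-532362 (-) and chrI:142005-142034 (+), in the order listed.
YEF3: tgcgttggtgaAAATTTTTtcgcttcctcg
TEF4: aaaattgaaagAAAAATTTttttcatcaac
TEF1: aaaaaggcaatAAAAATTTttatcacgttt
TIF4631: tttttttcaagAAAAATTTtcgatgccgcg
SUP45: gaccctgaatgAAAAATTTtttcagaaatc
EFB1: gcctttgaagaAAAAATTTttcacattgtc

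Of the 25 members with the RRPE letters, 24 were called lower and *EFB1* was not called, where 32.7% of all genes tested were called lower. The median log2 fold change of these 25 was -1.36, with a range from -3.29 to -0.21. Of the 13 without the letters, 8 were called lower, *HEF3* was called higher and 4 were not called. Their median was -0.76, with a range from -1.88 (*TIF11*) to 1.40. The letters occurred in both genes of 2 of the 7 paralog pairs and in 1 gene of the other 5. In 4 of those 5 (*TEF1*, *YEF3*, *TEF4* and *TIF4631*) the gene with the letters had the lower fold change, and in the fifth (*HYP2* and *ANB1*) it did not. The share called lower among all genes with these letters was not counted, so a link between the letters and the fold change was not tested. A match is a description of the letters and not evidence of binding.

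**Figure D4:**
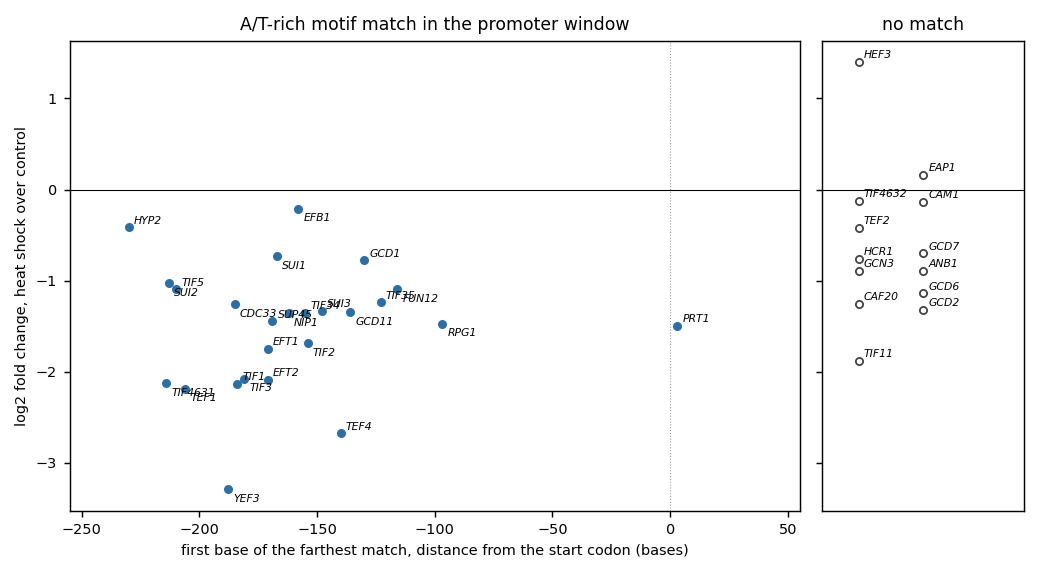
Log2 fold change in heat shock over control of the 38 genes, against the position of the RRPE letters farthest before the start codon (left, 25 genes) and for the 13 genes without them (right). *YEF3*, *TEF4*, *TEF1* and *TIF4631* lie among the lowest on the left, and *HEF3* and *EAP1* are the highest on the right.

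The other motifs were less common in the set. The PAC letters (GATGAG), also named for RNA polymerase subunit promoters, occurred in 23.7% of the member regions and 20.4% of all regions. The stress response element (AGGGG, bound by Msn2 and Msn4) occurred in 10.5% of the member regions, those of *TIF5*, *GCD1*, *TIF35* and *FUN12*, and in 21.6% of all. The heat shock element occurred in *ANB1* alone, against 0.784% of all regions, and so did the Rox1 letters (ATTGTTCTC), against 0.717%. The core of the Rap1 site (ACCCATACA) occurred only in *EAP1*, against 0.417%. *ANB1* is a gene that Rox1 represses in air, and both of its matches are shown with the motif in capitals, at chrX:525577-525605 (-) and chrX:525497-525525 (-).
ANB1, Rox1 letters: ttcctattccATTGTTCTCtttggtaaac
ANB1, heat shock element: tgacttttTTCTTGAAATTTCaacttgcc

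Other genes of the translation pathway were also mostly called lower. A list of 26 other factors covered initiation, elongation, helicases, poly(A) binding, the Gcn2 kinase pathway, release, recycling and the modification of eIF5A and eEF2. Of these, 18 (69.2%) were called lower and 1 higher, against 32.7% and 33.7% of all genes tested, with a median of -0.75. With a replicate block 2 were called higher, as *SLH1* joined. The largest falls were those of *LIA1*, the hydroxylase that completes hypusine on eIF5A, with 61.0 and 67.9 CPM in heat-shocked cells, against 467 and 538 CPM in control cells (-2.96, edgeR adjusted p = 3.96e-06), of the ribosome-bound factor *STM1* with 346 and 374 CPM in heat-shocked cells, against 2541 and 2630 CPM in control cells (-2.84, edgeR adjusted p = 3.96e-06), and of the ribosome recycling factor *RLI1* (-2.08). The gene called higher was *DBP1*, a paralog of the helicase gene *DED1*, with 15.4 and 16.5 CPM in heat-shocked cells, against 7.86 and 7.51 CPM in control cells (1.05, edgeR adjusted p = 0.000596). *DED1* itself was not called (0.15, edgeR adjusted p = 0.343).

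**Figure D5:**
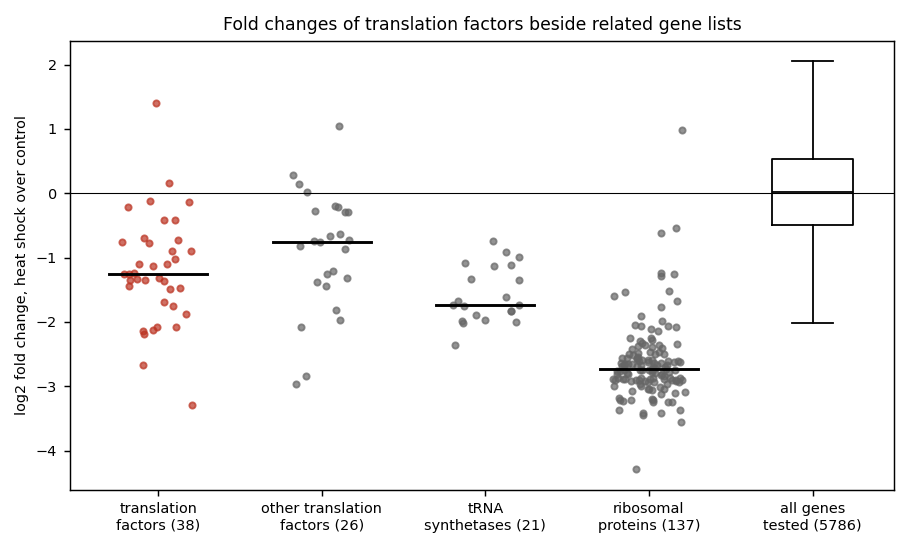
Log2 fold changes in heat shock over control for the 38 translation factors, 26 other factors, 137 ribosomal protein genes and all 5786 genes tested. Also shown are 21 listed genes for aminoacyl-tRNA synthetases, with the cofactor *ARC1* among them. Points are genes with bars at medians, and a box of quartiles with whiskers stands for all genes. The medians are -1.25 for the translation factors, -0.75 for the other factors, -1.73 for the synthetases, -2.73 for the ribosomal proteins and 0.03 for all genes.

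By their median, the 38 genes lay between these other factors and the genes for ribosomes and for charging tRNA. Of 137 cytosolic ribosomal protein genes 136 were called lower and *RPL15B* higher, with a median of -2.73. The list for cytosolic aminoacyl-tRNA synthetases held 21 genes, counting the cofactor *ARC1*, which is not itself a synthetase. All 21 listed were called lower, with a median of -1.73 and a range from -2.35 to -0.73. These medians are descriptions of each list with no test between them.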

How the data were processed

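Libraries were grouped by strain and temperature from their labels. The authors trimmed the reads (Trim Galore 0.6.10), aligned them to R64 (STAR 2.7.10b) and tallied unique alignments on coding sequence without strand (HTSeq 2.0.2), so reads from a gene and its antisense partner cannot be told apart. Whole-number counts of each gene were deposited, with no scaling. The TPM values, deposited by the authors in a single stacked column and therefore read as a score, derive from these counts and coding lengths. Reads given to no gene (5.91% to 6.60% of reads) were left out.

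Counts of the 4 *S. cerevisiae* libraries were fitted in R 4.3.3 with edgeR 4.0.16 (TMM, filterByExpr, glmQLFit, glmQLFTest, no covariates), with Benjamini-Hochberg adjustment over 5786 genes and a threshold of 0.05. The study used DESeq2, run here (1.42.0) as an alternative. The other alternatives were RLE size factors, library totals, no filter, a replicate block, leaving out each library, limma 3.58.1 on log2(TPM + 1) and log2(TPM + 0.1), and summed paralog pairs. A log2 fold change on the TPM scale includes its pseudocount. The SE is the size of the fold change divided by the square root of F. The fit was tested on simulated counts of independent libraries, with the same spread for every gene and 200 of 5786 genes changed. It called 50 of 50 genes lowered 4-fold, 50 of 50 lowered 2-fold and 11 of 5574 unchanged genes. In the data 66.4% of genes were called and same-numbered libraries deviated together, so the simulation does not show how the fit performs there. Python 3.11.15, pandas 2.3.3, SciPy 1.17.1, Biopython 1.88 and matplotlib 3.10.9 were used for tables, sequences and plots.

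The members and lists were chosen with earlier results of these data known. Values per library were given for members called higher, the largest and smallest change in each complex, paralog pairs, single-gene factors, and, of the other factors, those called higher and the largest falls. Other genes were named after their values were seen. In the check of strain and treatment, the alpha pheromone gene *MF(ALPHA)1* had 173 and 138 TPM in heat shock and 2603 and 2694 TPM in control, the a pheromone gene *MFA1* had 25.3 and 21.6 TPM in heat shock and 9.81 and 12.4 TPM in control, and *HSP104* had 2297 and 2706 TPM in heat shock and 112 and 97.4 TPM in control. At this depth the spread between 2 replicates, more than counting error, limits the precision.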

Additional observations from a re-analysis of the deposited data

How the results depend on the processing

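With 2 libraries per condition, the p-values rest on a spread that edgeR shares across genes, and where a library is left out the lone library is assumed to vary like the other condition. The number of members called lower was 32 of 38 in edgeR and in DESeq2, and 33 with the replicate block or without heat shock replicate 2. On the TPM scale 1260 (pseudocount 1) and 1261 (pseudocount 0.1) of all genes were called lower, against 1894, and 2716 and 2711 were called higher, against 1947. There 30 members were called lower and 2 higher (*HEF3* and *EAP1*), 3 other factors were called higher, and the uncalled *TIF4632* (0.13 and 0.13), *EFB1* (0.0398 and 0.0398) and *CAM1* (0.12 and 0.12) turned to positive values. These values lay below the median of all genes there, 0.26 (pseudocount 1) and 0.28 (pseudocount 0.1). Relative to the median of all genes, the TPM median was -0.55 for the eIF4E-binding repressors and -1.15 for eEF3 (pseudocount 1). With paralog pairs summed, no unit was called higher (0, as *HEF3* joins *YEF3*), 29 of 31 units were called lower, and the medians relative to all genes were -1.69 for eIF4F with eIF4B, -1.03 for eEF1 and -3.25 for eEF3. Leaving out each library in turn, these relative medians ran from -0.59 to -0.55 for the repressors, from -1.04 to -0.91 for eEF3, from -1.99 to -1.91 for eEF2, from -1.97 to -1.81 for eIF4F with eIF4B, from -1.41 to -1.27 for eIF2, from -0.98 (without heat shock replicate 1) to -0.37 (without control replicate 1) for eIF5A and from -1.30 to -0.93 for eIF5B. The *HYP2* and *ANB1* sum (-0.44, edgeR adjusted p = 0.0114) ran from -0.55 to -0.35 and lost its call without heat shock replicate 1 (-0.35, edgeR adjusted p = 0.0609). Other factors called higher were 2 without control replicate 2 and 2 with the replicate block, where *SLH1* joined *DBP1*. The labels number the replicates but name no shared batch, and same-numbered libraries deviated together (r = 0.57 over 2 pairs, across genes). With the replicate block, 2210 genes were called higher and 2092 lower, and among the members *ANB1* was also called lower (-0.90).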
